A study of Mus musculus with 15 samples.

Results

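The genes described here encode secreted and membrane-bound proteins that control osteoclast formation. They are the ligand genes *Tnfsf11* (RANKL), *Csf1* and *Il34*, and *Tnfrsf11b*, which encodes the decoy receptor osteoprotegerin. They were chosen by name, and all 4 were found among the 54232 genes of the count table and were among the 22151 genes tested. The secondary palate, the tissue that separates the mouth from the nasal cavity, was taken from wild-type mice on embryonic days 13.5 (E13.5), 14.5 (E14.5), 15.5 (E15.5) and 16.5 (E16.5) and on the day of birth (P0). No animal carried a mutation or received a treatment, so the comparisons are between stages. Each of the 5 stages had 3 bulk RNA libraries, a library being a pool of palates of 3 embryos, so errors and p-values measure how pools vary. Total counts were 21.5 to 69.0 M in the 15 libraries, at which 3 counts, taken as the detection floor, equalled 0.0435 to 0.14 CPM (a gene's counts scaled to a common library total). All values of the 4 genes were above that floor. All 3 E16.5 libraries had under 1 CPM of 4 Y-linked genes together, while every other stage had at least 1 library above 50 CPM, and the part of sex in comparisons with E16.5 was not tested.

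Osteoclasts are the cells that resorb bone. Their precursors are of the macrophage lineage, survive and multiply through the receptor CSF1R, and turn into osteoclasts when RANKL binds the receptor RANK. Osteoprotegerin is a secreted decoy that binds RANKL and keeps it from RANK, so the balance of RANKL to osteoprotegerin is widely used as a measure of the drive for resorption. CSF1 and IL34 are different proteins that both bind CSF1R. RANKL and osteoprotegerin are made by osteoblasts, osteocytes and other stromal cells, and IL34 is known from epidermis and neurons.

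*Tnfsf11* (ENSMUSG00000022015.8) lies on chromosome 14, 78277445 to 78308043, on GRCm38. *Tnfrsf11b* (ENSMUSG00000063727.3) lies on chromosome 15, 54250619 to 54278484. *Csf1* (ENSMUSG00000014599.10) is on chromosome 3, 107741048 to 107760469, and *Il34* (ENSMUSG00000031750.15) on chromosome 8, 110741829 to 110805924. All 4 are on the minus strand, and counts were taken over all annotated exons of a gene, merged to 2236, 2818, 5281 and 1959 bases. No other gene of the table overlapped the first 3. *Il34* overlapped 2 antisense genes, *Gm15894* and *Gm15895*, which were counted separately on the other strand and reached at most 4 and 5 counts in a library.

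RefSeq promoters on GRCm38.p6 were matched for *Tnfsf11* and *Csf1*, and not for *Tnfrsf11b* or *Il34*. The 250 bases before the start are shown for this pair, whose genes were also those called higher at E15.5 than at E14.5 (values below). Both are written 5′ to 3′ on the minus strand, and capitals mark matches to the motifs searched.
Tnfsf11, chr14:78308044-78308293: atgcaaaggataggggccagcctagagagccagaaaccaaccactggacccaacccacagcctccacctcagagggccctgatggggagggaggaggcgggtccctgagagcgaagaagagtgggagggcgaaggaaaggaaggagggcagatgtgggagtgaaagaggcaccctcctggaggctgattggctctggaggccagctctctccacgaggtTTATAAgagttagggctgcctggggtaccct
Csf1, chr3:107760470-107760719: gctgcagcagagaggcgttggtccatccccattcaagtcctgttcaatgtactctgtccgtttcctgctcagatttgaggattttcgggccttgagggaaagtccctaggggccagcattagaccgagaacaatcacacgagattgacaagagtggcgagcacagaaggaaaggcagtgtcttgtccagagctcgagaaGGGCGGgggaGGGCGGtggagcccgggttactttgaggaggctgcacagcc
The *Tnfsf11* window held the TATA motif TATAA, in overlapping matches on both strands that begin 31 and 30 bases before the start. TATAA was found on either strand in 22.8% of 32851 promoter windows of the same length. The *Csf1* window had no TATAA and held the GC box GGGCGG at 51 and 41 bases before the start, a motif present in 32.7% of windows. Neither window held the RUNX motif TGTGGT (14% of windows), the AP-1 motif TGACTCA (4.46%) or the E-box CACGTG (6.02%).

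All 4 genes were higher at birth than at E13.5. Their levels differed across the 5 stages in edgeR's quasi-likelihood F test (4 of 4 genes past a Benjamini-Hochberg adjusted p of 0.05, where 59.1% of all tested genes passed). From E13.5 to P0 the log2 fold changes were 3.66 for *Tnfsf11* (standard error 0.39, adjusted p 1.50e-05), 3.51 for *Il34* (0.46, 5.72e-05), 1.89 for *Tnfrsf11b* (0.32, 0.000377) and 1.75 for *Csf1* (0.17, 9.18e-06). In that contrast the median of the 4 genes was 2.70 and that of all tested genes 0.03. All 4 were called higher at P0, a contrast in which 56.6% of all tested genes were called (29.8% higher and 26.8% lower). In bulk tissue, more cells of a type and more RNA per cell cannot be told apart.

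The steps between successive stages held fewer calls. From E14.5 to E15.5, 2 of 4 genes were called, *Tnfsf11* and *Csf1*, both higher (26.1% of all tested genes called, 12.7% higher and 13.4% lower), with a median log2 fold change of 0.85 against 0.03 for all genes. From E13.5 to E14.5, edgeR called 0 of 4 genes, with 0 at an unadjusted p under 0.05 and 0 by DESeq2 (0.00903% of all tested genes called). From E15.5 to E16.5 edgeR called 0 of 4, with 2 at an unadjusted p under 0.05 and 1 by DESeq2 (1.41% of all genes called). From E16.5 to P0 it called 0 of 4, with 1 at an unadjusted p under 0.05 and 1 by DESeq2 (0.352% of all genes called).

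*Tnfsf11* encodes RANKL, the ligand that drives osteoclast differentiation. It was at 0.745, 0.732 and 0.817 CPM in the E13.5 libraries and at 0.514, 0.787 and 0.927 CPM at E14.5. It then was at 1.94, 2.15 and 3.30 CPM at E15.5, at 2.44, 3.35 and 6.39 CPM at E16.5, and at 11.2, 7.41 and 10.4 CPM at P0. Every library from E15.5 on was above all 6 earlier libraries, and the P0 libraries were above all others. Between E14.5 and E15.5 the mean rose from 0.743 ± 0.210 to 2.46 ± 0.733 CPM (SD, n = 3), a log2 fold change of 1.72 (standard error 0.36, edgeR adjusted p 0.00607). From E15.5 to P0 it rose again by a log2 fold change of 1.97 (standard error 0.36, adjusted p 0.00391, 22.9% of genes called). The single steps from E15.5 to E16.5 and from E16.5 to P0 did not pass (adjusted p 0.251 and 0.166), nor did E14.5 against E13.5 (0.974). DESeq2 called the step from E16.5 to P0 (adjusted p 0.0217, log2 fold change 1.25). In order of level the stages ran E14.5, E13.5, E15.5, E16.5 and P0, and of the neighbours in that order E13.5 and E15.5 differed past the threshold (adjusted p 0.00670), while the others did not.

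*Tnfrsf11b* encodes the decoy receptor osteoprotegerin. Its libraries were at 3.94, 2.2 and 3.88 CPM at E13.5, at 3.07, 4.65 and 5.07 CPM at E14.5 and at 4.26, 6.15 and 6.49 CPM at E15.5. They were at 7.29, 6.08 and 12 CPM at E16.5 and at 10.4, 12.2 and 14.5 CPM at P0. Neighbouring stages overlapped throughout, and none of the 4 steps passed (adjusted p 0.634, 0.359, 0.293 and 0.531 in order of stage). Against E13.5, the level was higher at E16.5 by a log2 fold change of 1.34 (standard error 0.32, adjusted p 0.00442, 48.2% of genes called) and at P0 by 1.89 (standard error 0.32, adjusted p 0.000377). At E15.5 the difference from E13.5 did not pass (0.76, standard error 0.31, adjusted p 0.0993). The P0 libraries were all above the E15.5 libraries, by a log2 fold change of 1.14 (standard error 0.32, adjusted p 0.0233).

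**Figure D1:**
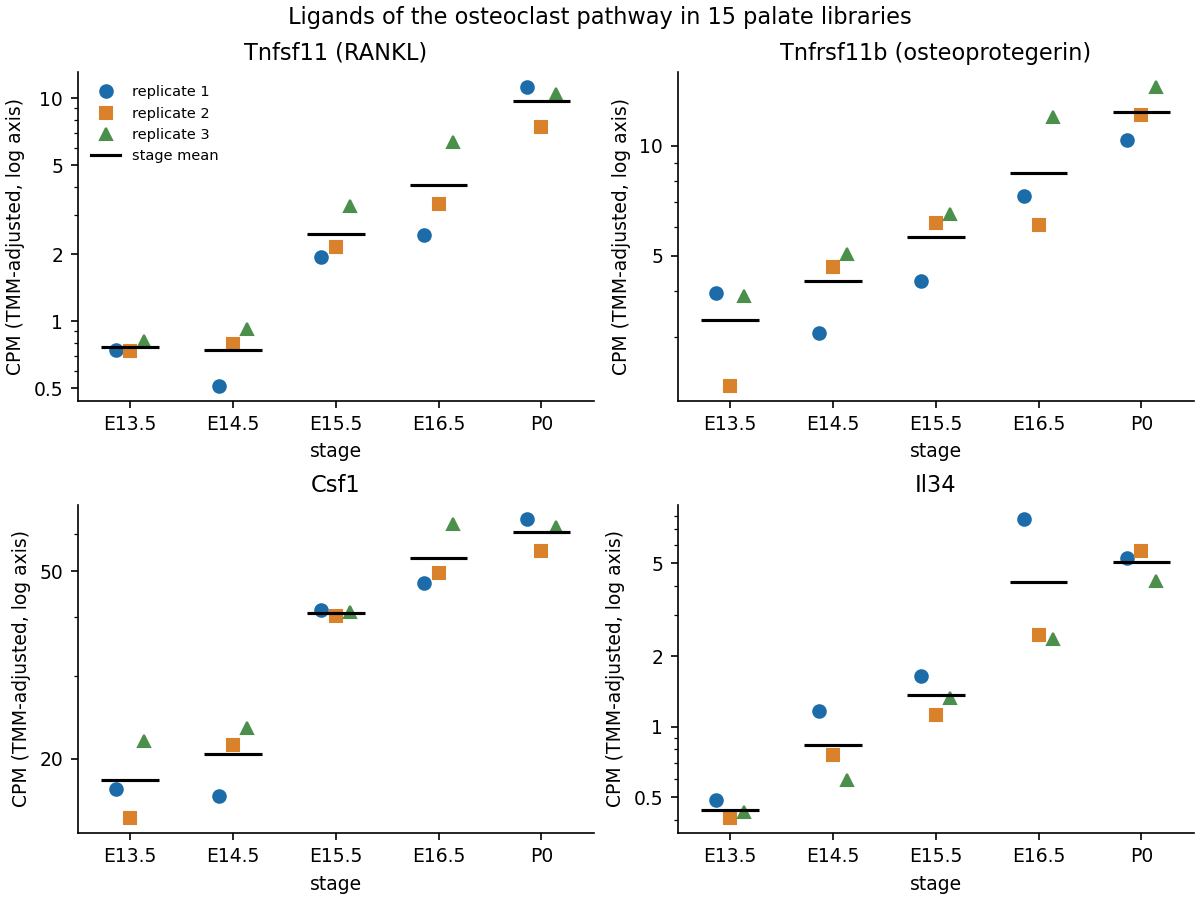
CPM of *Tnfsf11*, *Tnfrsf11b*, *Csf1* and *Il34* (log axes) in each library by stage, with points shaped by replicate number and lines at the stage means. *Csf1* sat between 40.2 and 41.3 CPM in the E15.5 libraries, above all E14.5 libraries, and the highest *Il34* value was the 7.70 CPM of E16.5 replicate 1.

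The ratio of *Tnfsf11* to *Tnfrsf11b* needs no scaling for depth, since both counts come from the same library. In counts it was 0.189, 0.333 and 0.211 at E13.5 and 0.168, 0.169 and 0.183 at E14.5. It was 0.455, 0.349 and 0.508 at E15.5. The E16.5 libraries had ratios of 0.334, 0.550 and 0.533, and those of P0 1.07, 0.606 and 0.719. The P0 libraries were above all others, and P0 replicate 1 alone had more *Tnfsf11* than *Tnfrsf11b* counts (403 and 376, with an exact 95% binomial interval of the ratio of 0.929 to 1.24 for counting error only). The 9 libraries from E15.5 on were above the 6 earlier ones, with the closest values at 0.334 (E16.5 replicate 1) and 0.333 (E13.5 replicate 2).

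In order of stage from E13.5 to P0, the mean ratio of counts was 0.244 ± 0.0778, 0.173 ± 0.00835, 0.437 ± 0.0810, 0.472 ± 0.120 and 0.799 ± 0.243 (SD, n = 3). Per kilobase of exon, which allows the levels of the 2 genes to be compared, these means were 0.308 ± 0.0980, 0.218 ± 0.0105, 0.551 ± 0.102, 0.595 ± 0.151 and 1.01 ± 0.306. Osteoprotegerin transcripts thus outnumbered those of RANKL per length in every embryonic library, and the per-kilobase ratio at P0 ranged from 0.764 to 1.35. The log2 ratio, with 0.5 added to each count, differed across the 5 stages in a permutation test of the F statistic (p 9.00e-05 over 100000 permutations, 0.000180 adjusted over the 2 ratios tested). Its mean was 1.40 higher in the 9 libraries of E15.5, E16.5 and P0 than in the 6 of E13.5 and E14.5, a 2.63-fold difference (exact two-sided permutation test, p 0.000400, adjusted 0.000799). The split after E14.5 was chosen with earlier results of these data known, so this p is not independent evidence of it. With 3 libraries against 3, the smallest p of the exact test is 0.1, and it was reached from E14.5 to E15.5 (2.48-fold), from E16.5 to P0 (1.68-fold) and from E13.5 to E14.5, where the ratio was lower at E14.5 (0.732-fold). From E15.5 to E16.5 the libraries overlapped (1.07-fold, exact p 0.600).

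**Figure D2:**
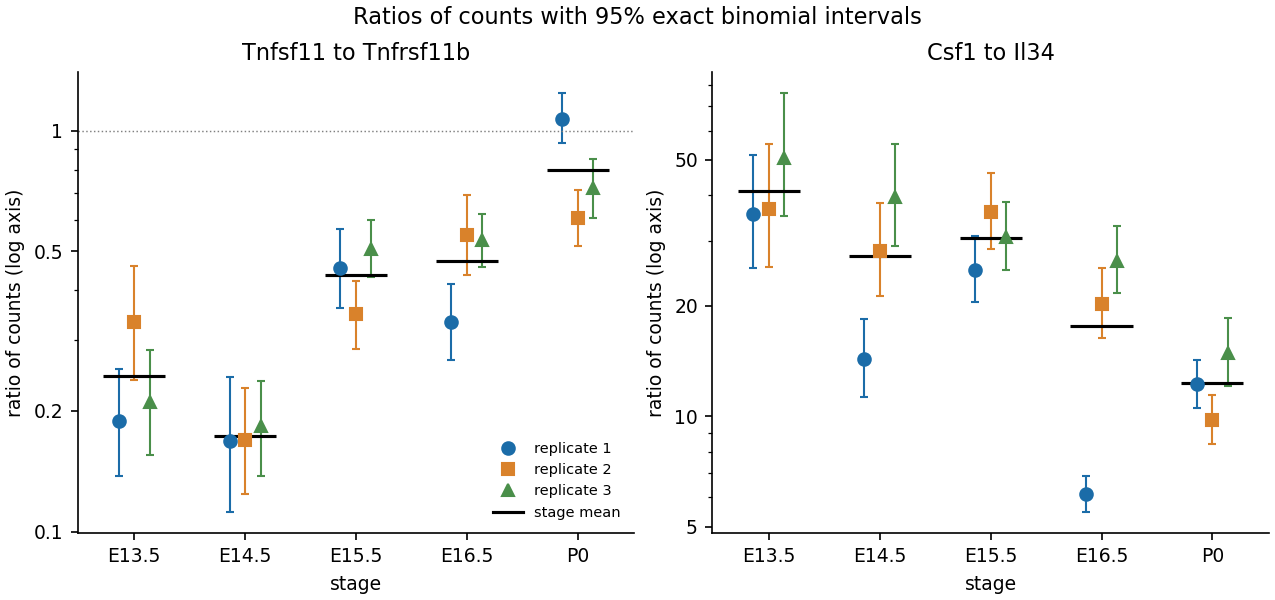
Ratio of *Tnfsf11* to *Tnfrsf11b* counts (left) and of *Csf1* to *Il34* counts (right) in each library by stage, on log axes. Bars are exact 95% binomial intervals, which cover counting error only, lines are stage means and the dotted line on the left marks equal counts. The left ratio lies between 0.168 and 0.333 at E13.5 and E14.5 and between 0.606 and 1.07 at P0.

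*Csf1*, the main growth and survival factor of macrophages and osteoclast precursors, had the highest level per kilobase of the 4 genes at every stage. It was at 17.3, 15 and 21.8 CPM at E13.5 and at 16.7, 21.4 and 23.3 CPM at E14.5. It was at 41.3, 40.2 and 41.0 CPM at E15.5, at 47.2, 49.7 and 63.0 CPM at E16.5, and at 64.4, 55.3 and 62.1 CPM at P0. The E15.5 libraries lay close together and above all 6 earlier ones, and the 6 later libraries were all above those of E15.5. Between E14.5 and E15.5 *Csf1* rose by a log2 fold change of 1.00 (standard error 0.16, adjusted p 0.00209), and from E15.5 to P0 by 0.57 (standard error 0.16, adjusted p 0.0267). E14.5 and E13.5, E15.5 and E16.5, and E16.5 and P0, which are the other neighbours in the order of levels, did not differ past the threshold (adjusted p 0.637, 0.197 and 0.691).

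*Il34*, the second ligand of CSF1R, had the lowest level per kilobase at E13.5, where it was at 0.487, 0.408 and 0.431 CPM (29 to 34 counts). It was at 1.17, 0.757 and 0.590 CPM at E14.5, at 1.65, 1.1 and 1.33 CPM at E15.5, at 7.70, 2.46 and 2.37 CPM at E16.5, and at 5.27, 5.67 and 4.18 CPM at P0. The E16.5 libraries spanned 3.25-fold, the widest spread of any member within a stage, and E16.5 replicate 1 had the highest value of all 15 libraries. No single step passed in edgeR (adjusted p 0.320, 0.228, 0.0729 and 0.832 in order of stage). Against E13.5 the level was higher at E15.5 by a log2 fold change of 1.62 (standard error 0.43, adjusted p 0.0184, 22.9% of genes called), at E16.5 by 3.24 (0.45, 0.000171) and at P0 by 3.51 (0.46, 5.72e-05). P0 was also above E15.5, by 1.88 (standard error 0.42, adjusted p 0.00997).

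The E16.5 library with the high *Il34* stood apart in other ways. E16.5 replicate 1 had the lowest *Tnfsf11* of its stage (2.44 CPM) and the lowest level of the osteoblast factor *Sp7* (63.0 CPM, against 92.9 and 167 CPM). This library did not have the lowest sum over the osteoblast and osteocyte list (16653 CPM, against 15092 and 21207 CPM). It also had the highest sums at that stage over the marker lists of skeletal muscle (44179 CPM, against 20856 and 14808 CPM), macrophages (377, against 267 and 308 CPM), cartilage (1464, against 425 and 560.0 CPM), endothelium (841, against 499.7 and 505 CPM) and lymphocytes (20.2, against 9.43 and 9.30 CPM). Its sums for stratified epithelium (1379 CPM) and neurons (1778 CPM) were the lowest of the stage. The part of these tissues in its *Il34* level was not tested. Without that library the step of *Il34* from E15.5 to E16.5 had an adjusted p of 0.285 and a log2 fold change of 0.81, against 1.61 with all libraries, and the step from E14.5 to E15.5 then passed (adjusted p 0.0434). With DESeq2 on all libraries the step from E15.5 to E16.5 passed (adjusted p 0.00596), and in edgeR it passed without E16.5 replicate 3 (0.0455).

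*Csf1* counts exceeded those of *Il34* in every library. In the same order of stage, the mean ratio was 41.0 ± 8.38, 27.4 ± 12.6, 30.6 ± 5.49, 17.6 ± 10.4 and 12.3 ± 2.55 (SD, n = 3). Per kilobase, *Il34* made up 6.31% ± 1.10 of the summed level of these ligands at E13.5 and 18.4% ± 3.15 at P0. The log2 ratio differed across stages by a permutation test (p 0.0471, also 0.0471 when adjusted over the 2 ratios). This call depended on single libraries: p was between 0.0545 and 0.101 in 11 of 15 tests that left out 1 library, which are all except those without E14.5 replicate 1 or 3 or E16.5 replicate 1 or 3. Adding 2 or 5 in place of 0.5 to each count gave 0.0519 and 0.0580. The 9 libraries from E15.5 on had a mean log2 ratio 0.85 below the 6 earlier ones, which did not pass (exact two-sided permutation test, p 0.0571). It passed when libraries were permuted within replicate numbers (exact test, p 0.0460). It also passed without E14.5 replicate 1 (0.0165), E15.5 replicate 2 (0.0310), E15.5 replicate 3 (0.0396) or E16.5 replicate 3 (0.0493).

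**Figure D3:**
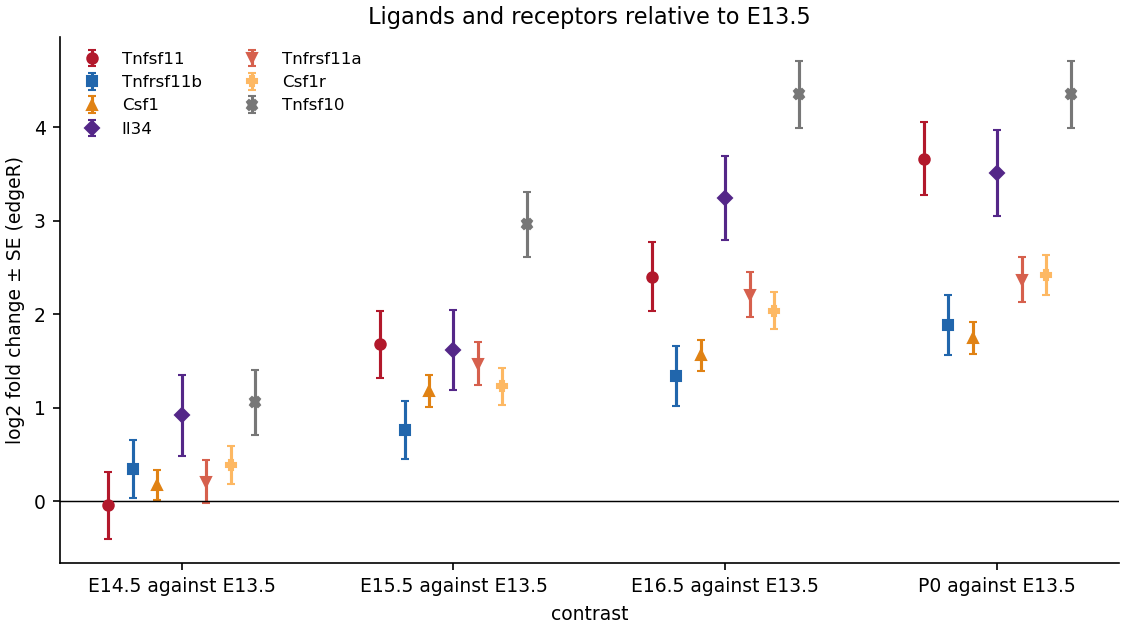
Log2 fold changes against E13.5 with standard errors from edgeR for the 4 genes described, the receptors *Tnfrsf11a* and *Csf1r*, and *Tnfsf10*, which shares osteoprotegerin as a decoy. At P0 *Tnfsf11* (3.66) and *Il34* (3.51) lie above *Tnfrsf11b* (1.89) and *Csf1* (1.75), and the 4 contrasts share the E13.5 libraries.

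Levels of different genes can be compared per kilobase of exon. At E13.5 their means were 3.42 CPM per kilobase for *Csf1*, 1.18 for *Tnfrsf11b*, 0.342 for *Tnfsf11* and 0.226 for *Il34*. At P0 they were 11.5 ± 0.888 for *Csf1*, 4.40 ± 0.732 for *Tnfrsf11b*, 4.33 ± 0.894 for *Tnfsf11* and 2.57 ± 0.394 for *Il34* (SD, n = 3). The P0 values of *Tnfrsf11b* and *Tnfsf11* differed by less than the spread between libraries.

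The receptors RANK and CSF1R also rose between E14.5 and E15.5. Of 6 receptors and binding partners, edgeR called 3 higher at E15.5 than at E14.5 and 0 lower, and DESeq2 called 3 higher and 1 lower. Of all tested genes, edgeR called 12.7% higher and 13.4% lower. The median log2 fold change of the 6 was 0.54 against 0.03 for all genes. *Tnfrsf11a*, which encodes RANK, was at 1.92 ± 0.622, 2.22 ± 0.0931, 5.31 ± 0.323, 8.89 ± 1.77 and 9.93 ± 0.854 CPM from E13.5 to P0 (SD, n = 3). Its log2 fold change from E14.5 to E15.5 was 1.26 (standard error 0.23, adjusted p 0.00340). *Csf1r*, the shared receptor of CSF1 and IL34, was at 25.1 ± 4.98, 33.0 ± 2.09, 58.9 ± 2.74, 104 ± 19.2 and 134 ± 35.5 CPM over the same stages, with a log2 fold change of 0.84 from E14.5 to E15.5 (standard error 0.20, adjusted p 0.00999).

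*Tnfsf10* encodes TRAIL, a death ligand that osteoprotegerin also binds. It rose from 0.294 ± 0.123 CPM at E14.5 to 1.10 ± 0.193 CPM at E15.5 (adjusted p 0.00250, log2 fold change 1.90, standard error 0.33) and was at 2.89 ± 0.597 CPM at P0. The other binding partners did not differ past the threshold between E13.5 and P0. *Lgr4*, described as another receptor of RANKL, was at 81.9 ± 13 and 66.8 ± 10.6 CPM (adjusted p 0.111), and was lower at E16.5 than at E13.5 by a log2 difference of -0.41 (adjusted p 0.0374). *Sdc1*, a proteoglycan that binds IL34, was at 182 ± 45.7 and 201 ± 33.0 CPM (adjusted p 0.602), and *Ptprz1*, a further IL34 receptor, at 94.8 ± 63.7 and 56.3 ± 11.3 CPM (adjusted p 0.189). *Ptprz1* was highest at E14.5 (166 ± 51.9 CPM), from which P0 differed by -1.55 on the log2 scale (adjusted p 0.0148).

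Downstream of RANK, 12 of 20 signalling and transcription factor genes were higher and 2 lower at P0 than at E13.5, with a median log2 fold change of 0.76 against 0.03 over all genes. Those higher were *Nfkb2*, *Rela*, *Relb*, *Fos*, *Nfatc1*, *Spi1*, *Tyrobp*, *Fcer1g*, *Oscar*, *Trem2*, *Syk* and *Plcg2*, and those lower *Map3k7* and *Src*. Of all tested genes, 29.8% were higher and 26.8% lower in that contrast, and 12.7% higher and 13.4% lower at E15.5 than at E14.5. *Nfatc1*, the master transcription factor of osteoclasts, was at 32.2 ± 10.6 CPM at E13.5 and 59.0 ± 8.51 CPM at P0 (log2 fold change 0.87, standard error 0.34, adjusted p 0.0436). Between E14.5 and E15.5, 8 of the 20 were higher and 2 lower, and the number higher fell to 1 and 3 without E14.5 replicates 1 and 2, and to 2 without either E15.5 replicate 2 or 3. Of 7 negative regulators of osteoclast formation, 5 were higher and 1 lower at P0 than at E13.5. Among them *Irf8* had a log2 fold change of 0.99 (standard error 0.26, adjusted p 0.00551).

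Of 12 genes of osteoclast fusion and bone resorption, 8 were higher at E15.5 than at E14.5 and 0 lower, with a median log2 fold change of 1.23, and 9 were higher and 0 lower at P0 than at E13.5 (median 4.22), where 12.7% and 29.8% of all tested genes were called higher in these contrasts. *Acp5*, the acid phosphatase used to stain osteoclasts, was at 3.59 ± 1.37, 42.4 ± 31.6, 365 ± 106 and 784 ± 372 CPM from E14.5 to P0 (SD, n = 3, in order of stage). *Ctsk*, the collagen-cleaving cathepsin K, was at 23.6 ± 10.8, 135 ± 45.3, 664 ± 222 and 1255 ± 424 CPM. *Dcstamp*, needed for the fusion of precursors, was at 0.124 ± 0.0478, 1.80 ± 1.34, 9.19 ± 4.08 and 14.1 ± 4.32 CPM, with at most 4 counts in an E13.5 library. *Calcr*, the calcitonin receptor, had its highest mean at E14.5 (8.14 ± 2.2 CPM) and was at 2.57 ± 0.466 CPM at E15.5 (adjusted p 0.0593).

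From E15.5 to P0, 22.9% of all tested genes were called. Log2 fold changes were 1.97 for *Tnfsf11*, 1.14 for *Tnfrsf11b*, 0.57 for *Csf1* and 1.88 for *Il34* (adjusted p 0.00391, 0.0233, 0.0267 and 0.00997). Those of *Tnfrsf11a* (0.90), *Csf1r* (1.19), *Ctsk* (3.22), *Acp5* (4.21) and *Dcstamp* (2.97) also passed (adjusted p 0.0166, 0.00267, 0.000915, 0.00159 and 0.00937). Those of *Nfatc1* (0.66, adjusted p 0.181) and *Calcr* (1.17, adjusted p 0.178) did not pass.

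Among known inducers and repressors of RANKL or osteoprotegerin, 11 of 22 tested genes were higher and 3 lower at P0 than at E13.5, and 4 were higher at E15.5 than at E14.5 (*Vdr*, *Lif*, *Esr1* and *Tgfb1*). Of all tested genes, 29.8% were higher and 26.8% lower in the first contrast and 12.7% higher in the second. *Vdr*, the vitamin D receptor, was at 1.92 ± 0.593, 14.5 ± 5.27, 34.1 ± 8.34 and 58.3 ± 15.4 CPM from E14.5 to P0, and its step from E14.5 to E15.5 passed (2.92 on the log2 scale, standard error 0.37, adjusted p 0.000544). *Pthlh*, which encodes the hormone-like peptide PTHrP, was at 4.05 ± 1.91 CPM at E13.5 and 10.8 ± 4.71 CPM at P0 (adjusted p 0.0101). *Ptgs2*, the inducible enzyme of prostaglandin synthesis, was at 0.336 ± 0.0439 and 2.12 ± 0.887 CPM (adjusted p 0.000355). *Il11*, a cytokine that induces RANKL, was at 0.226 ± 0.0540 and 0.325 ± 0.0598 CPM (adjusted p 0.220). The 3 genes lower at P0 were the Wnt ligand *Wnt5a* and the Wnt targets *Axin2* and *Lef1*.

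Markers of the cells that could make or receive these proteins moved with the stages as well. From E14.5 to E15.5, 11 of 14 genes of osteoblasts and osteocytes rose, where 12.7% of all tested genes were called higher. At P0, 13 were higher than at E13.5, where 29.8% of all tested genes were. The near-identical *Bglap* and *Bglap2* are among them and are uncertain. The summed level of the list was 1076 to 2261 CPM at E14.5, 14233 to 16493 at E15.5 and 18333 to 35393 at P0. *Col1a1* made up most of that sum, with means of 1504, 13592 and 19934 CPM at these stages. *Sp7*, a transcription factor of osteoblasts, rose from 31.1 ± 3.83 to 131 ± 23.2 CPM between E14.5 and E15.5 (log2 fold change 2.07, standard error 0.40, adjusted p 0.00412). At P0 it was at 83.3 ± 31.6 CPM, a log2 difference of -0.65 from E15.5 that did not pass (adjusted p 0.240). *Runx2*, which acts before it, was at 46.6 ± 11.8 CPM at E13.5 and 54.8 ± 19.5 CPM at P0 (adjusted p 0.626). *Dmp1*, a matrix gene of osteocytes, rose from 0.989 ± 0.0444 to 45.8 ± 11.5 CPM between E14.5 and E15.5 (adjusted p 5.05e-05) and was at 119 ± 51.4 CPM at P0. *Sost* was highest at E16.5 (3.87 ± 0.418 CPM) and at 1.00 ± 0.349 CPM at P0. *Col10a1*, a gene of hypertrophic cartilage, was at 0.252 ± 0.0561 CPM at E14.5, 3.24 ± 1.25 at E15.5 and 50.7 ± 30.1 at P0.

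Of 12 macrophage genes, 9 were higher and 1, *Cx3cr1*, was lower at P0 than at E13.5, and their summed level was 89.1 to 147 CPM at E13.5 and 377 to 533 CPM at P0. *Adgre1*, which encodes the macrophage antigen F4/80, had a log2 fold change of 0.62 in that contrast (standard error 0.21, adjusted p 0.0256) and *Cx3cr1* -0.93 (0.19, 0.00126). Between E14.5 and E15.5, 6 of the 12 were higher, where 12.7% of all tested genes were called higher. That count fell to 2 without E14.5 replicate 1 or 2 and to 3 without E15.5 replicate 1 or 2. The lymphocyte list, another possible source of RANKL, summed to at most 5.12 CPM up to E14.5 and to 14.3 to 23.9 CPM at P0, and its T and B cell genes *Cd3e*, *Cd3d*, *Cd8a* and *Ms4a1* were each at 0 in at least 1 library and not tested. Stratified epithelium summed to 128 to 395 CPM at E13.5 and 1211 to 5670 CPM at P0, with *Ivl* at 0 in at least 1 library. Neuron genes summed to 1348 to 3656 CPM at E13.5, 3181 to 6699 at E14.5 and 1197 to 3892 at P0. For P0 against E13.5, 3 of 5 tested lymphocyte, 6 of 9 epithelial, 5 of 8 endothelial and 7 of 9 skeletal muscle genes were higher, 3 of 9 cartilage genes higher and 3 lower, 3 of 10 neuron genes lower and 1 of 6 erythroid genes lower. Beside the 29.8% of all tested genes called higher and 26.8% called lower in that contrast, the cartilage counts and the count of lower neuron genes are near the background. No neuron gene was called higher. The part of these cell types in the levels of *Tnfsf11*, *Tnfrsf11b*, *Csf1* and *Il34* was not tested.

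**Figure D4:**
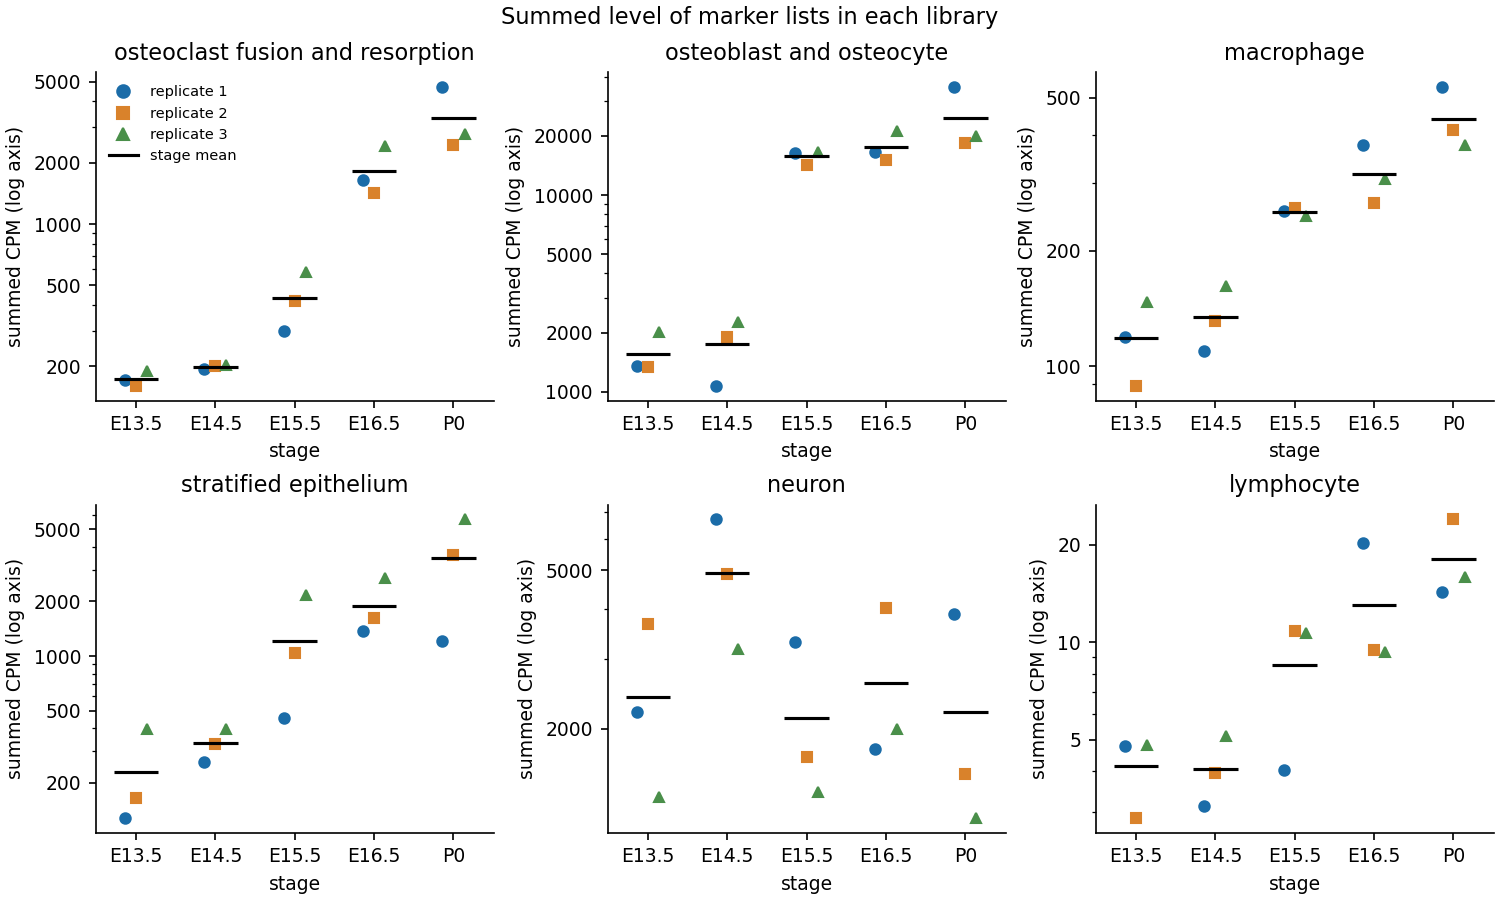
Summed CPM of 6 marker lists (log axes) in each library by stage, with lines at the stage means. The osteoblast and osteocyte list steps from at most 2261 CPM at E14.5 to at least 14233 CPM at E15.5, and most of its sum is *Col1a1*. The neuron list is highest at E14.5, with up to 6699 CPM.

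For each of *Tnfsf11*, *Tnfrsf11b*, *Csf1* and *Il34*, the 5 genes with the most similar profile were found by the Pearson correlation of log2 CPM over the 15 libraries. Tested genes with a mean of at least 5 CPM were compared. These are descriptions of a shared time course, since the libraries share stages. For *Tnfsf11* they were the leukocyte integrin *Itgb2* (r 0.978), *Stk17b* (0.977), *Lrrc15* (0.976), the chemokine gene *Ccl9* (0.972) and *Pstpip1* (0.971). *Itgb2* was at 1.56 CPM at E13.5 and 14.4 CPM at P0, and *Ccl9* at 1.16 and 33.8 CPM. For *Tnfrsf11b* they were *Fxyd3* (0.957), *Adcy3* (0.954), *Capg* (0.942), *Ifitm3* (0.940) and *Slfn2* (0.940). For *Csf1* they were the nuclear lamina gene *Lmna* (0.992), *Rab7b* (0.990), *Srpx2* (0.989), *Cbr3* (0.988) and *Fstl3* (0.988), and for *Il34* *Hagh* (0.979), the histocompatibility gene *H2-D1* (0.976), *BC004004* (0.975), *Parp10* (0.974) and *Fam189a2* (0.973). Among these genes themselves, *Tnfsf11* was closest to *Csf1* (0.949) and *Tnfrsf11b* (0.922), and *Il34* was less like the other 3 (0.795 to 0.855).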

How the data were processed

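Fragment counts per gene were deposited by the authors as 1 table, made with featureCounts 2.0.1 per the file headers, with reverse-stranded counting over GENCODE M18, from adapter-trimmed, duplicate-marked alignments. The submitters' processing notes name cutadapt 3.4, HISAT2 2.2.1, SAMtools 1.12 and mm10. Symbols came from GENCODE M21 (54079 genes), and 97.7% of shared identifiers had the same position. Stages came from the titles. Genes passing edgeR's filterByExpr (minimum count 10) were fitted over all 15 libraries with 1 coefficient per stage and TMM scaling (edgeR 4.0.16, R 4.3.3, common biological coefficient of variation 0.332), tested by quasi-likelihood F tests and adjusted by Benjamini-Hochberg over 22151 genes, with a threshold of 0.05. CPM are TMM-adjusted. A standard error is the fold change over the root of F. Log2 CPM used a prior count of 2. The steps were tested on simulated data. The members, lists, the named genes (all members and binding partners, others by role, and the 5 most similar profiles) and the split after E14.5 were chosen with earlier results of these data known. A gene that the naming rule selects is not reported here. The alternatives were DESeq2 1.42.0, its size factors, upper-quartile scaling, other filters, a fit to 6 libraries alone, a replicate block, other added counts, rank correlations and leaving out each library.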

Additional observations from a re-analysis of the deposited data

How the results depend on the processing

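The differences across the 5 stages of all 4 genes kept their call in all 84 alternative fits, and those of P0 against E13.5 and of *Tnfsf11* and *Csf1* between E14.5 and E15.5 in every fit run. DESeq2 added calls for *Tnfsf11* from E16.5 to P0 (adjusted p 0.0217) and for *Il34* from E15.5 to E16.5 (0.00596). Leaving out 1 library gave, for *Il34*, adjusted p values of 0.0434 to 0.458 from E14.5 to E15.5 (past the threshold only without E16.5 replicate 1), 0.0455 to 0.285 from E15.5 to E16.5 (only without E16.5 replicate 3) and 0.0929 to 1.00 from E16.5 to P0, where the sign turned without E16.5 replicate 2 (1.00) or 3 (0.994). For *Tnfsf11* from E13.5 to E14.5 the range was 0.842 to 1.00, with the sign turned without E13.5 replicate 3 (1.00) or E14.5 replicate 1 (0.950). The *Tnfsf11* to *Tnfrsf11b* tests passed in every alternative, at p 0.000110 to 0.00128 across stages and 0.000333 to 0.000999 for later against earlier stages when 1 library was left out. The second range says little about robustness. The split after E14.5 was chosen with earlier results of these data known, and p stays near the smallest that the group sizes allow. The earlier and later groups met at their closest libraries, E13.5 replicate 2 and E16.5 replicate 1 (log2 ratio -1.58 in both). For *Csf1* to *Il34* across stages, p was 0.0519 and 0.0580 with 2 or 5 added to each count and 0.0130 to 0.101 without 1 library. For later against earlier stages it was 0.0165 to 0.121 without 1 library, and past the threshold without E14.5 replicate 1 (0.0165), E15.5 replicate 2 (0.0310) or 3 (0.0396) or E16.5 replicate 3 (0.0493). Ratios of summed counts stayed within 1 SD of the stage means.

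Deviations from the stage means correlated at -0.30 to 0.55 over 30 pairs of same-numbered libraries of different stages. For libraries with different numbers the range was -0.50 to 0.43, and 7 of 15 libraries were closest to their own number. Of the marker lists, only the stratified epithelium sum rose from replicate 1 to 3 in every stage. The labels do not say whether the numbers pair samples, and the overlapping ranges cannot decide it. With the replicate block, the *Csf1* to *Il34* difference between later and earlier stages had p 0.0460, and no call of *Tnfsf11*, *Tnfrsf11b*, *Csf1* or *Il34* between stages changed.

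List counts under these alternatives were added after the data were seen. Those of genes higher at E16.5 than at E15.5, a contrast in which 1.41% of all tested genes were called, depended on the libraries fitted. The 5 osteoclast genes fell to 0 without E15.5 replicate 2 or 3 or E16.5 replicate 1, and also in the fit to the 6 libraries of the contrast alone. Under rank correlation, 4, 3, 2 and 2 of the 5 genes most like *Tnfsf11*, *Tnfrsf11b*, *Csf1* and *Il34* were among the first 50, and with a mean of at least 1 CPM, 3, 2, 5 and 5 remained.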
